A study of Mus musculus with 6 samples.

Results

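The 8 genes examined encode enzymes with which the liver makes, uses and stores glucose: Pck1, Pcx, Fbp1 and G6pc of gluconeogenesis, Pklr of glycolysis, Khk of fructose entry, and Gys2 and Pygl of glycogen synthesis and breakdown. They were chosen by name as the rows of a liver RNA-seq table whose gene symbol equals 1 of these 8, out of 24411 symbols, and all 8 passed the filter on low counts that left 5945 genes for testing. The livers came from 3 p62+/+ (wild-type) mice and 3 p62S351E/+ mice at postnatal day 19. A p62S351E/+ mouse carries, in 1 allele of the gene for p62, a Ser351-to-Glu change that mimics phosphorylation, and no mouse received a treatment that the labels give. The mutant mice derive from 1 chimeric male whose embryonic stem cells had been changed by prime editing, and the mutation was present in the whole body rather than in the liver alone. The labels give neither sex nor batch, and nothing states that the livers were taken after a common period of feeding or fasting. The paper reports growth retardation and low blood glucose in younger p62S351E/+ mice, and hyperkeratosis of their esophagus and forestomach. It proposes that poor food intake could be the primary cause of this phenotype. Effects of nutrition and of the mutation in the liver cannot be told apart here, and the part of nutrition was not tested. Each library is 1 liver, with 3 in each group. The p-value of a gene sets its genotype difference against variation between livers of the same genotype.

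Gluconeogenesis and glycolysis share most of their enzymes and are separated by a few steps that run 1 way only. Pyruvate carboxylase (Pcx) and phosphoenolpyruvate carboxykinase (Pck1) carry pyruvate up to phosphoenolpyruvate, against pyruvate kinase (Pklr). Fructose-1,6-bisphosphatase (Fbp1) opposes phosphofructokinase (Pfkl is its liver form), and glucose-6-phosphatase (G6pc) releases the free glucose at the end of the route. In the liver, fasting hormones are known to raise the transcripts of the first set, and insulin and dietary carbohydrate that of Pklr.

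The libraries were shallow for these transcripts and were not alike in composition. Total expected counts, the reads that RSEM assigned to each gene, lay between 8696712 and 10341622, but outside the 3 RNAs Rn45s, Lars2 and Mir6236 only 134911 to 315436 counts remained, with the lowest number in p62S351E/+ mouse 1. The 8 genes together held 887 to 1569 counts per library, and all their counts were whole numbers. All 9 hepatocyte markers in the table, such as Alb and Apob, were detected in every library, in keeping with the liver label. Their summed normalized counts (expected counts scaled by edgeR's TMM factors) were 13386 to 14405 in the p62+/+ libraries and 20702, 31942 and 14877 in p62S351E/+ mice 1, 2 and 3. Of these 9 markers 0 passed the test and 3 (Alb, Apob and Cps1) were higher in every p62S351E/+ mouse than in any p62+/+ mouse, as were 12.0% of all genes tested. A log2 fold change above 0 was found for 8 of the 9, with a median of 0.47. Transcripts of 10 brain markers summed to 1888 to 1990 normalized counts in the p62+/+ libraries and 1831 in p62S351E/+ mouse 3, against 38.1 and 39.1 in p62S351E/+ mice 1 and 2, in both of which 4 of the 10 (among them Snap25 and Gfap) stood at 0. Xist, which is transcribed in females, had 70.8, 1505 and 1071 counts in the p62+/+ libraries and 1, 0 and 1537 in the p62S351E/+ libraries. p62S351E/+ mouse 3 is therefore the only mutant library whose hepatocyte and brain marker sums both lie near those of the p62+/+ libraries. Its values are given separately throughout. Other marker sums of mouse 3 lay outside the p62+/+ range. They were 96.8 against 77.6 to 89.8 for Kupffer cells and 170 against 188 to 302 for stellate cells and fibroblasts. For bile duct cells the sum was 22.5 against 23.3 to 82.1, and for erythroid cells 58.5 against 137 to 197. The endothelial sum of 227 lay within the range of 192 to 280. In whole liver, fewer cells of a type and less RNA per cell cannot be told apart.

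The genotypes were compared with the quasi-likelihood test of edgeR and Benjamini-Hochberg adjustment over all 5945 genes, and a gene was called if its adjusted p was below 0.05 and its log2 fold change exceeded 1 in size. Of the 8 genes, 0 were called higher and 0 lower, against 0.841% and 0.0841% of all genes tested. At an unadjusted p below 0.05 (edgeR), 536 of all 5945 genes were higher and 330 lower. Of the 8 genes, 3 were higher at this threshold (Pck1, Pcx and Gys2) and 1 was lower (Pklr). The same 4 genes were those whose groups did not overlap, 3 with all p62S351E/+ mice above all p62+/+ mice and 1 with all below, where 12.0% and 14.7% of all genes did so. By the DESeq2 Wald test and by limma-voom 1 of the 8, Pck1, was called higher, with 1.03% and 2.20% of all genes called higher by these tools, and 0 were called lower. The median log2 fold change of the 8 genes was 0.34, against -0.03 over all genes tested. This median was positive in 17 of 22 analyses. It was -0.57 with scaling by library size alone and -0.30 with scaling to the hepatocyte markers, scalings that moved the median of all genes to -0.68 and -0.60. It was also negative with Xist (-0.34) or the brain markers (-0.51) as a covariate and with only the 4 libraries that held brain transcripts (-0.48), so the median of the 8 genes has no settled direction.

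**Figure D1:**
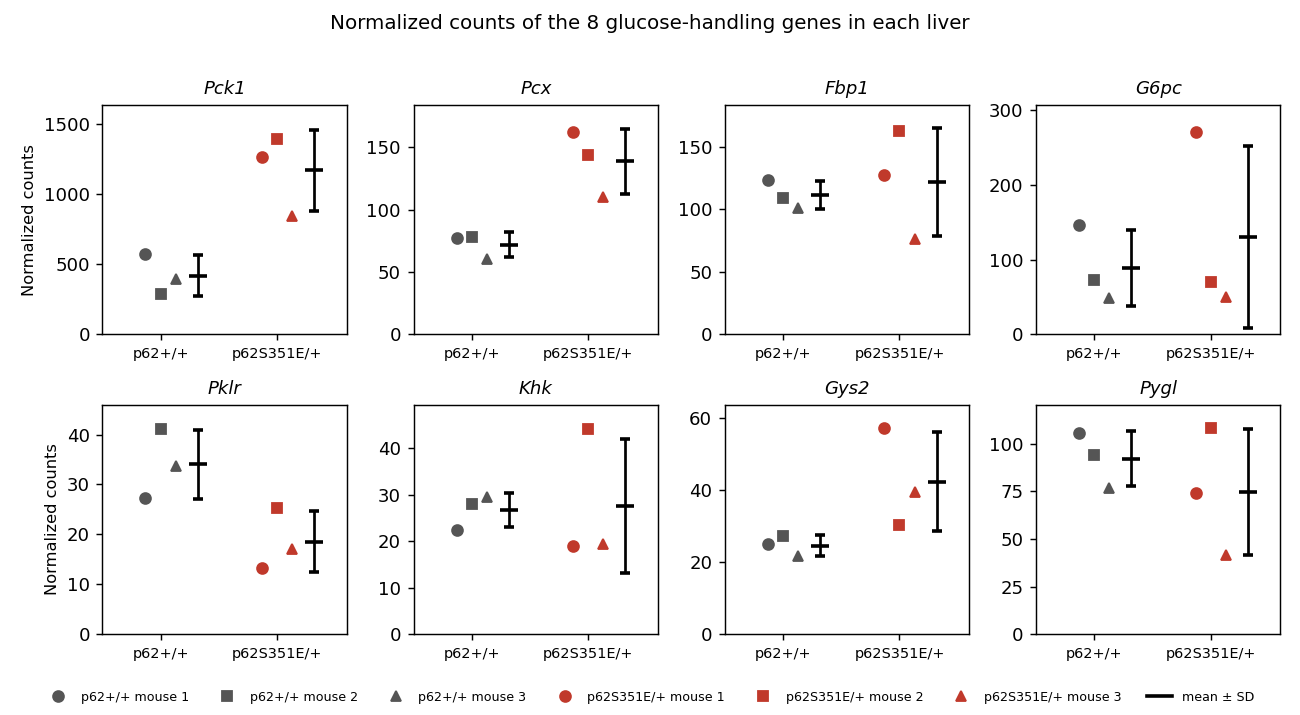
Normalized counts (y axes, from 0, each gene on its own scale) of the 8 genes in each liver, with p62+/+ mice in grey, p62S351E/+ mice in red, a symbol per mouse and bars for mean ± SD (n = 3). Pck1, Pcx and Gys2 lie higher in all 3 p62S351E/+ mice and Pklr lies lower, while G6pc is set apart mainly by mouse 1 of each genotype.

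Pck1, which encodes the cytosolic enzyme that commits oxaloacetate to gluconeogenesis, had the greatest difference of the 8 genes. Normalized counts of Pck1 were 576, 285 and 395 in wild-type livers, compared with 1264, 1392 and 847 in p62S351E/+ livers. The lowest p62S351E/+ value, that of mouse 3, lay above the highest p62+/+ value. The means were 419 ± 147 and 1168 ± 285 normalized counts (SD, n = 3), a 2.79-fold difference. The log2 fold change was 1.48 (SE 0.32, 95% confidence interval 0.76 to 2.20), with an adjusted p of 0.0878 by edgeR's quasi-likelihood test, so Pck1 missed the threshold while standing 93rd among all genes by p. The adjusted p was 0.0300 with the DESeq2 Wald test and 0.00360 with limma-voom. In p62S351E/+ mouse 3 alone Pck1 was 1.02 log2 units above the p62+/+ mean.

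The hepatocyte markers moved in the same direction as Pck1, so its counts were also set against them. Per 1000 hepatocyte-marker counts, Pck1 had 40.0, 21.3 and 28.7 counts in p62+/+ livers and 61.1, 43.6 and 56.9 in p62S351E/+ livers. The groups did not overlap on this scale either. Pck1 was the 1 gene of the 8 that was higher without overlap when set against these markers, where 1.98% of all genes were. Under this scaling the log2 fold change was 0.84, with an adjusted p of 0.327. Over all 21 alternative analyses the log2 fold change of Pck1 was positive, between 0.72 with scaling by library size alone and 1.79 without p62+/+ mouse 1. Its adjusted p ran from 0.000772 without p62S351E/+ mouse 3 to 0.644 with only the 4 libraries that held brain transcripts, in which the mutant group is 1 mouse and is assumed to vary like the others. The part of library composition in the Pck1 difference was not tested.

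Pck1 lies on chromosome 2 of GRCm38 (mm10) from 173153073 to 173159274 on the plus strand. The 250 bases before its start (chr2:173152823-173153072, RefSeq, GRCm38.p6) are shown because Pck1 and Pklr carried a wide contrast between opposing steps, and because cAMP response elements are a known route by which glucagon acts on Pck1. Capitals mark the letters ACGTCA, the half-site of such an element, 91 to 86 bases upstream of the start. These letters, on either strand, occur in 6.47% of 32851 promoter windows of this length.
Pck1: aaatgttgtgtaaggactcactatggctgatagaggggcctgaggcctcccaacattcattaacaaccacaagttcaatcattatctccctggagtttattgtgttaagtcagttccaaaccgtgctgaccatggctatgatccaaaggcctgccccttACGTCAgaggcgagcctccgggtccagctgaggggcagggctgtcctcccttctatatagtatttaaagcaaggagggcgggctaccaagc

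Pcx, whose mitochondrial product supplies the oxaloacetate that Pck1 consumes, was the second gluconeogenic gene with separated groups. Its normalized counts were 77.0, 78.4 and 60.5 in p62+/+ livers and 162, 144 and 110.0 in p62S351E/+ livers. Every p62S351E/+ value, mouse 3 included, exceeded every p62+/+ value. The means of 72.0 ± 9.99 and 138 ± 26.3 (SD, n = 3) differed 1.92-fold, with a log2 fold change of 0.94 (SE 0.23, 95% confidence interval 0.41 to 1.47) and an adjusted p of 0.122 (edgeR). In limma-voom the adjusted p was 0.0312 at a log2 fold change of 0.93, below the size needed for a call. Against the hepatocyte markers the groups of Pcx overlapped, with 5.35, 5.86 and 4.40 counts per 1000 marker counts in p62+/+ livers and 7.82, 4.50 and 7.39 in p62S351E/+ livers. Without p62S351E/+ mouse 3, when both remaining mutant libraries lack brain transcripts, Pcx and Pck1 were both called higher, with adjusted p-values of 0.00328 and 0.000772 (edgeR), and 5.21% of all genes were called higher in that comparison.

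Fbp1, which removes the first phosphate of fructose-1,6-bisphosphate, had nearly the same mean in both genotypes. Its normalized counts were 124, 109 and 101 in p62+/+ livers and 128, 163 and 76.7 in p62S351E/+ livers, so the mutant values spanned the wild-type ones. The log2 fold change was 0.13 (SE 0.28, 95% confidence interval -0.52 to 0.78, adjusted p 0.840 by edgeR), and its sign was kept in 14 of 21 alternatives. Set against the hepatocyte markers, Fbp1 was lower in every p62S351E/+ mouse, with 8.58, 8.18 and 7.35 counts per 1000 marker counts in p62+/+ livers and 6.16, 5.09 and 5.16 in p62S351E/+ livers. Pck1 and Fbp1 thus lay on opposite sides of the marker transcripts.

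G6pc, which encodes the catalytic subunit that releases free glucose, varied more within each genotype than between them. The normalized counts were 146, 72.2 and 48.4 in p62+/+ livers and 270 in p62S351E/+ mouse 1, with 70.6 and 50.4 in mice 2 and 3. Only mouse 1 of the p62S351E/+ group stood above the p62+/+ range. The log2 fold change of 0.54 had an SE of 0.74 and a 95% confidence interval from -1.29 to 2.37 (adjusted p 0.736, edgeR), so both a fall and a rise of more than 2-fold remain within it. In p62S351E/+ mouse 3 G6pc was 0.82 log2 units below the p62+/+ mean, whereas Pck1 in the same liver was 1.02 above it.

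Pklr, the pyruvate kinase of the liver, was the 1 gene of the 8 that lay lower in every p62S351E/+ mouse. Its normalized counts were 27.3, 41.1 and 33.7 in p62+/+ livers and 13.3, 25.2 and 17.0 in p62S351E/+ livers. The counts behind them were small, at 34, 53 and 39 reads against 7, 20 and 22. The means of 34.0 ± 6.94 and 18.5 ± 6.07 normalized counts (SD, n = 3) gave a log2 fold change of -0.86 (SE 0.30, 95% confidence interval -1.56 to -0.17) and an adjusted p of 0.267 (edgeR). The direction was the same in all 20 alternatives that tested Pklr, between -0.69 and -1.5. Against the hepatocyte markers the difference was wider, with 1.89, 3.07 and 2.45 counts per 1000 marker counts in p62+/+ livers and 0.644, 0.789 and 1.15 in p62S351E/+ livers. p62S351E/+ mouse 3, with brain transcripts at the wild-type level, was 1.0 log2 unit below the p62+/+ mean.

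Pklr lies on chromosome 3 from 89136122 to 89146815 on the plus strand. RefSeq gives it more than 1 start, and the downstream one is that of the liver form. The 250 bases before that start (chr3:89136373-89136622, GRCm38.p6) are shown because they hold a carbohydrate response element, the kind of sequence through which the glucose-sensing factor ChREBP (Mlxipl) is known to act on this gene. Capitals mark it, 170 to 154 bases upstream. The letters searched were CACGNG, 5 bases of any kind and CNCGTG on either strand, which occur in 13 of 32851 windows, or 0.0396%.
Pklr: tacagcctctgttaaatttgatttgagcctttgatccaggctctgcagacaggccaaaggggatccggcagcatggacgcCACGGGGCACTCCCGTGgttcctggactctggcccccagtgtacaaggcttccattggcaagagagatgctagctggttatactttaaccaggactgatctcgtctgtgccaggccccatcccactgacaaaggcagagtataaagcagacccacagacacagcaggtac

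Promoter windows were found for 7 of the 8 genes, and Gys2 had no entry. No other window of the 7 genes held the carbohydrate response element letters, and the CRE half-site was found in that of Pck1 alone. The E-box CACGTG, found in 6.02% of all windows, lay 71 to 66 bases upstream of Khk and 248 to 243 bases upstream of Pcx. TGTTTTG, the core of an insulin response sequence and present in 5.56% of windows, lay 174 to 168 bases upstream of G6pc. TGACNNNGC, the core of the antioxidant response element to which NRF2 binds, was in the windows of Fbp1 and G6pc and in 10.2% of all windows. TATAAA, present in 12.4% of windows, lay 29 to 24 bases upstream of G6pc and 31 to 26 bases upstream of the liver start of Pklr. Both strands were searched for each motif, and a match describes letters only.

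Khk, which phosphorylates fructose, did not separate the genotypes. Its normalized counts were 22.5, 27.9 and 29.4 in p62+/+ livers and 19.04, 44.1 and 19.4 in p62S351E/+ livers. p62S351E/+ mouse 2 was the highest of all 6 and the other two mutant mice were the lowest. Its log2 fold change was 0.05 (SE 0.36, 95% confidence interval -0.77 to 0.87, adjusted p 0.956 by edgeR), and its sign was kept in 10 of 21 alternatives. Relative to the hepatocyte markers Khk was lower in every p62S351E/+ mouse, with 1.56, 2.09 and 2.14 counts per 1000 marker counts in p62+/+ livers and 0.920, 1.38 and 1.302 in p62S351E/+ livers.

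The glycogen pair diverged in part. Gys2, the glycogen synthase of the liver, had 24.9, 27.2 and 21.6 normalized counts in p62+/+ livers and 57.1, 30.2 and 39.5 in p62S351E/+ livers. All 3 mutant values lay above the wild-type range, mouse 2 by a small margin. The log2 fold change of 0.77 (SE 0.28, 95% confidence interval 0.13 to 1.41) had an adjusted p of 0.281 by edgeR. Against the hepatocyte markers the Gys2 groups overlapped, at 1.57 to 2.03 counts per 1000 marker counts in p62+/+ livers and at 2.76, 0.947 and 2.66 in p62S351E/+ livers.

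Pygl, the liver phosphorylase that frees glucose units from glycogen, had 106, 93.9 and 76.9 normalized counts in p62+/+ livers and 74.3, 108 and 41.8 in p62S351E/+ livers. Mouse 3 was the lowest of all 6 and mouse 2 the highest. Its log2 fold change was -0.31 (SE 0.33, 95% confidence interval -1.07 to 0.46, adjusted p 0.657 by edgeR). With only the 4 libraries that held brain transcripts, Pygl was called lower (log2 fold change -1.13, adjusted p 0.0236, edgeR), where 0.303% of all genes were, but the mutant group is then p62S351E/+ mouse 3 alone, assumed to vary like the others. Per 1000 hepatocyte-marker counts Pygl was 7.35, 7.02 and 5.59 in p62+/+ livers and 3.59, 3.39 and 2.81 in p62S351E/+ livers, and the groups did not overlap. In all, 4 of the 8 genes (Fbp1, Pklr, Khk and Pygl) were lower without overlap on this scale, against 29.5% of all genes tested.

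**Figure D2:**
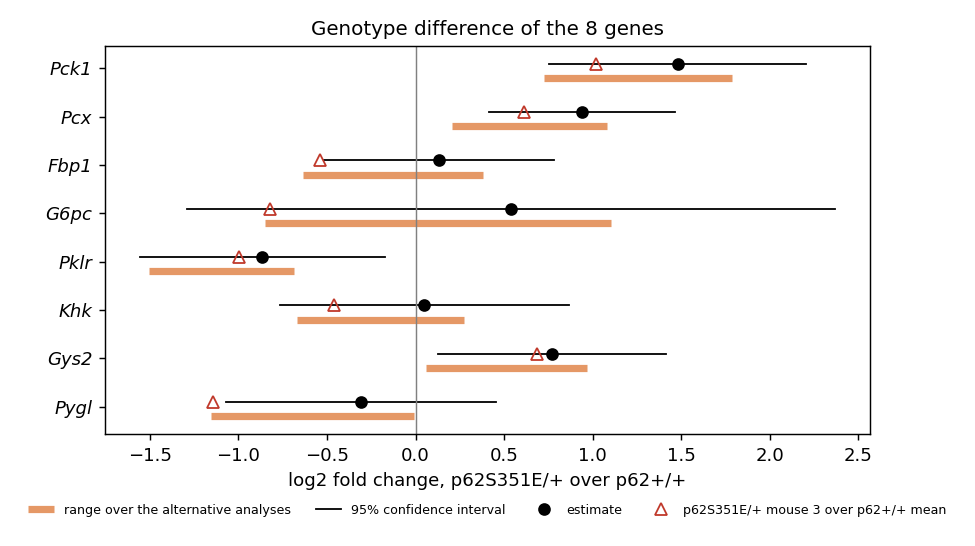
Log2 fold change of p62S351E/+ over p62+/+ (x axis) for the 8 genes, with the estimate as a black point, its 95% confidence interval as a black line, the range over the alternative analyses in orange and p62S351E/+ mouse 3 over the p62+/+ mean as a red triangle. The intervals of Pck1, Pcx and Gys2 lie above 0 and that of Pklr below, and those of the other 4 genes cross 0.

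Levels of different genes were compared as normalized counts per kilobase of exon. In the p62+/+ mice the order was Pck1 (122 ± 42.9, SD, n = 3), Fbp1 (65.4 ± 6.69), G6pc (36.8 ± 21.1), Pcx (15.1 ± 2.10), Khk (14.8 ± 2.03), Pygl (13.4 ± 2.12), Pklr (10.5 ± 2.14) and Gys2 (9.24 ± 1.06). Of the neighbours in this order, only Pck1 with Fbp1 and G6pc with Pcx had ranges that did not overlap. In the p62S351E/+ mice Pck1 (341 ± 83.2), Fbp1 (71.8 ± 25.4), G6pc (54.0 ± 50.4) and Pcx (29.1 ± 5.53) kept the first 4 places. Gys2 (15.9 ± 5.14) stood above Khk (15.3 ± 8.0), Pygl (10.9 ± 4.82) and Pklr (5.72 ± 1.88) there, and the ranges of neighbours were separate only between Pck1 and Fbp1 and between Pcx and Gys2. The last place was thus held by Gys2 in p62+/+ livers and by Pklr in p62S351E/+ livers, although each overlapped with the gene just above it.

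To compare opposing or related steps, the log2 ratio of 2 genes was taken within each library, with 0.5 added to each count. This ratio does not depend on how libraries are scaled to each other. For the pairs the difference between genotypes was tested by an exact two-sided permutation test, which with 3 against 3 cannot go below a p of 0.1. Pck1 over Pklr was 4.38, 2.78 and 3.53 in p62+/+ livers and 6.47, 5.75 and 5.60 in p62S351E/+ livers. All 3 p62S351E/+ ratios were above all p62+/+ ratios, with a mean difference of 2.38 log2 units, or 5.19-fold (exact permutation p = 0.1, 0.2 adjusted over the 6 pairs compared, of which 5 are given here). p62S351E/+ mouse 3, whose hepatocyte and brain marker sums were near those of the wild-type libraries, took part in this separation.

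Pcx over Pdha1, 2 ways for pyruvate to enter mitochondrial metabolism, was 1.62, 1.44 and 0.95 in p62+/+ livers and 2.89, 1.91 and 2.09 in p62S351E/+ livers. These groups did not overlap either, with a difference of 0.96 log2 units (exact permutation p = 0.1, 0.2 adjusted). Pdha1, the E1 alpha subunit of pyruvate dehydrogenase, had a log2 fold change of 0.00 (SE 0.29).

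The other pairs overlapped. Fbp1 over Pfkl differed by 0.42 log2 units (exact permutation p = 0.6, 0.6 adjusted), and Pfkl had a log2 fold change of -0.42 (SE 0.42) at 6.30 to 17.1 normalized counts. Fbp1 over Khk, which do not catalyse opposing steps, differed by 0.12 (exact permutation p = 0.6, 0.6 adjusted). Pygl over Gys2 was 2.07, 1.78 and 1.81 in p62+/+ livers and 0.37, 1.82 and 0.08 in p62S351E/+ livers. Mutant mice 1 and 3 lay well below the wild-type ratios and mouse 2 among them, which gave a difference of -1.13 log2 units (exact permutation p = 0.3, 0.45 adjusted).

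**Figure D3:**
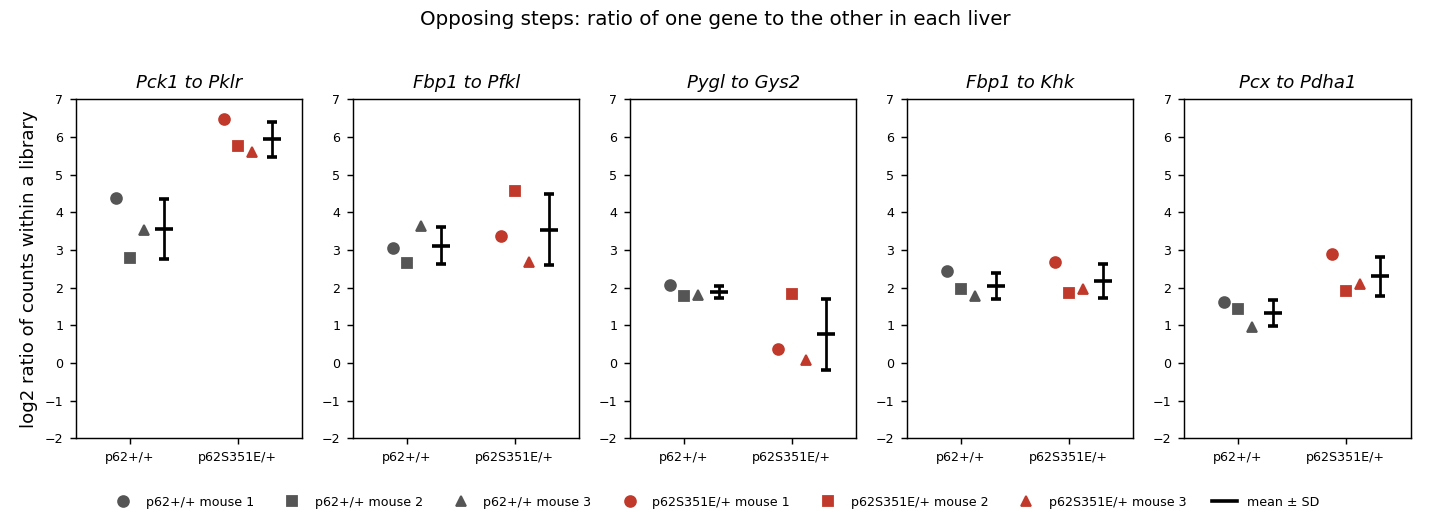
Log2 ratio of 2 genes within each library (y axis, common to all panels) for 5 pairs of opposing or related steps, by mouse, with bars for mean ± SD (n = 3 per genotype). Pck1 over Pklr and Pcx over Pdha1 lie higher in all 3 p62S351E/+ mice, and the groups of the other 3 pairs overlap.

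The other genes of these pathways were followed in lists of 104 genes besides the 8, of which 82 were tested. Of the 82, 2 were called higher and 0 lower (18 higher and 6 lower at an unadjusted p below 0.05, edgeR), and 18 were higher and 13 lower without overlap. Over all genes tested these shares were 0.841% and 0.0841% for calls and 12.0% and 14.7% for groups without overlap. The 13 of 82 lower without overlap are near that share. At an unadjusted p below 0.05 (edgeR), 536 of all 5945 genes were higher and 330 lower, and the 6 of 82 lower are near that share. The median log2 fold change of the 82 was 0.09. Both called genes supply intermediates to the steps above. Ugp2, which makes the UDP-glucose used by glycogen synthase and by glucuronidation, had 32.9, 37.3 and 38.9 normalized counts in p62+/+ livers and 150, 170 and 157 in p62S351E/+ livers. Its groups were far apart, with a log2 fold change of 2.13 (SE 0.20, adjusted p 0.00287 by edgeR). Sord, the sorbitol dehydrogenase that yields fructose, had 97.9, 120 and 104 normalized counts in p62+/+ livers and 282, 335 and 251 in the p62S351E/+ mice (log2 fold change 1.43, SE 0.21, adjusted p 0.0243, edgeR). Per 1000 hepatocyte-marker counts Ugp2 was 2.28 to 2.83 in p62+/+ livers and 5.32 to 10.6 in p62S351E/+ livers. On the same scale Sord was 6.80 to 8.99 and 10.5 to 16.9, so neither gene overlapped between genotypes. Ugp2 was called in 19 of 21 alternatives and Sord in 12. Both calls were lost with scaling by library size alone (adjusted p 0.417 and 0.421) and to the hepatocyte markers (0.119 and 0.333), and that of Sord also without any 1 of the p62+/+ mice or p62S351E/+ mouse 1 (0.0890 to 0.185), with Xist (0.0513) or the brain markers (0.0730) as a covariate, or with the replicate block (0.0983, edgeR). In these analyses other than the 2 scalings the log2 fold change of Sord was 1.22 to 1.53, against 1.43 in the comparison reported. Under the 2 scalings it was 0.75 and 0.81.

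Among gluconeogenesis genes, which include Pck1, Pcx, Fbp1 and G6pc, 18 of 21 were tested. Of these 18, 17 had a log2 fold change above 0 and 7 were higher without overlap, 0 were lower without overlap, and 0 were called (5 higher and 0 lower at an unadjusted p below 0.05, and 1, Pck1, called by the DESeq2 Wald test and by limma-voom). Without overlap, 12.0% of all genes were higher and 14.7% lower. Of all 5945 genes, 2856 had a log2 fold change above 0, and 536 were higher and 330 lower at an unadjusted p below 0.05 (edgeR). The median of the 18 was 0.54, but it was -0.10 with scaling to the hepatocyte markers and -0.24 with scaling by library size alone, 0.50 and 0.44 above the median of all genes under the same scalings. Under each of these 2 scalings only 5 of the 18 had a log2 fold change above 0, so the shared direction depends on the scaling. The members that were separate by more than 1 log2 unit, besides Pck1, were Mpc1 (1.05, SE 0.29), a subunit of the mitochondrial pyruvate carrier, and Slc25a13 (1.02, SE 0.25), a mitochondrial aspartate-glutamate carrier, with adjusted p-values of 0.162 and 0.120 by edgeR. Against the hepatocyte markers Mpc1 stayed higher without overlap. Slc25a13 overlapped, with 2.23 to 2.49 counts per 1000 marker counts in p62+/+ livers and 4.23, 1.85 and 3.59 in p62S351E/+ livers.

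For the lists that follow, 0.841% of all genes were called higher and 0.0841% lower, and 12.0% were higher and 14.7% lower without overlap. At an unadjusted p below 0.05 (edgeR), 536 of all 5945 genes were higher and 330 lower. The 14 glycolysis genes, Pklr among them, were divided, with 4 higher and 3 lower without overlap, a median of 0.09 and 0 called (3 higher and 3 lower at an unadjusted p below 0.05, edgeR; 0 called by the DESeq2 Wald test and by limma-voom). Of the 11 genes of fructose and galactose entry, Khk among them, 7 were tested, 1 (Sord) was called higher and 3 were higher without overlap, with a median of 0.67. Of the 11 glycogen synthesis genes, Gys2 among them, 8 were tested, 1 (Ugp2) was called higher, and 5 were higher and 1 lower without overlap. The list also holds the glycogen synthase kinases Gsk3a and Gsk3b, which act against synthesis. Gsk3b (log2 fold change -0.35, SE 0.23) was the 1 gene lower without overlap. The median of this list was 0.87, and it was above 0 in all 22 analyses, the lowest being 0.16 with scaling by library size alone. Besides Ugp2, the glycogen branching enzyme Gbe1 (log2 fold change 1.65, SE 0.33, adjusted p 0.0744) and Ppp1r3c (1.37, SE 0.29, adjusted p 0.0814), a subunit that directs protein phosphatase to glycogen, were separate by more than 1 log2 unit (edgeR), and limma-voom called both higher. Ppp1r3c rested on 8.54 to 32.4 normalized counts. Per 1000 hepatocyte-marker counts its groups overlapped (0.638 to 0.947 in p62+/+ livers, 1.56, 0.828 and 2.03 in p62S351E/+ livers), while those of Gbe1 did not. Of the 8 glycogen breakdown genes, Pygl among them, 5 were tested, 0 were called and 2 were lower without overlap (0 higher and 1 lower at an unadjusted p below 0.05, edgeR). The median of -0.31 was below 0 in all 22 analyses, the DESeq2 Wald test and limma-voom included, in both of which 0 of these genes were called. Glycogen synthesis and breakdown genes thus had medians of opposite sign, and this difference was not tested. Gys2 and Pygl are themselves in these lists, and the breakdown median of -0.31 is the value of Pygl. The lists are therefore not a separate observation from that pair.

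**Figure D4:**
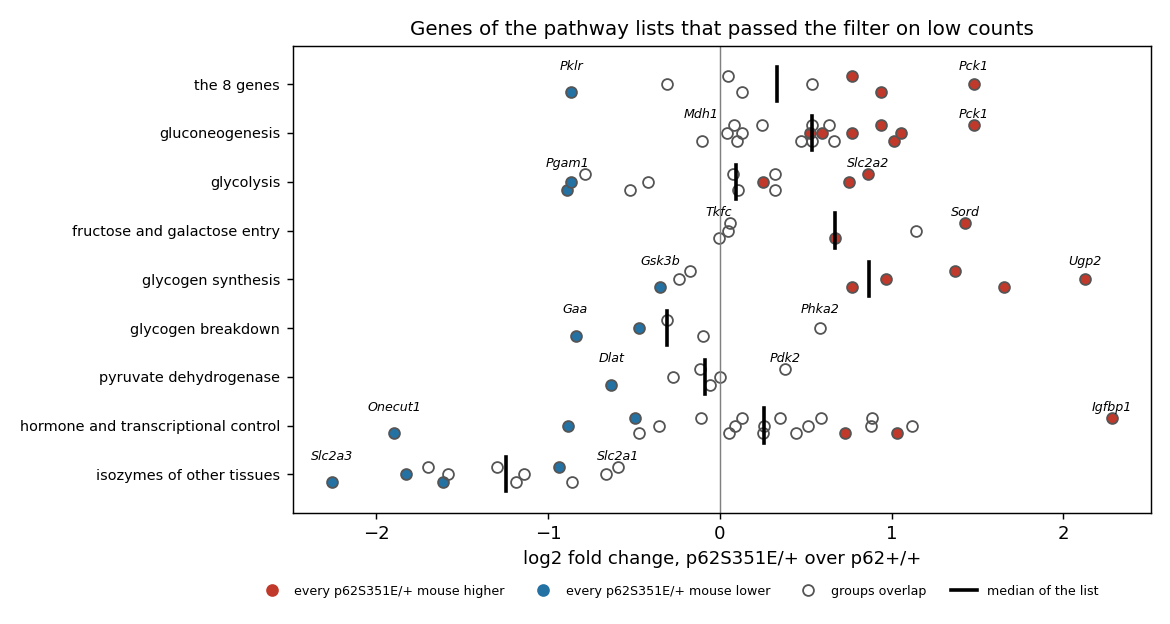
Log2 fold change of p62S351E/+ over p62+/+ (x axis) for the tested genes of the pathway lists (rows), red where every p62S351E/+ mouse was higher, blue where every one was lower, open where the groups overlap, with the list median as a black bar and the lowest and highest gene shown in each list named. The medians run from -1.24 for isozymes of other tissues to 0.87 for glycogen synthesis.

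Among the tested hormonal and transcriptional regulators of these enzymes, 15 had a log2 fold change above 0 and 6 below. Of 22, 21 were tested, 0 were called (5 higher and 2 lower at an unadjusted p below 0.05, edgeR, with 1, Igfbp1, called higher by the DESeq2 Wald test and 0 by limma-voom), and 3 were higher and 3 lower without overlap (12.0% and 14.7% of all genes), with a median of 0.26. Igfbp1, a secreted binding protein that insulin represses, had 160.5, 62.9 and 26.8 normalized counts in p62+/+ livers and 524, 452 and 243 in p62S351E/+ livers. Its groups were separate, but the spread among p62+/+ mice was wide, and the log2 fold change of 2.28 had an SE of 0.68 and an adjusted p of 0.241 (edgeR). Ppargc1a, a coactivator of gluconeogenic genes, was higher without overlap (1.03, SE 0.30, adjusted p 0.203), and the hepatic factor Onecut1 was lower (-1.90, SE 0.48, adjusted p 0.133, edgeR). Onecut1 had 1.90, 3.78 and 6.20 normalized counts in the p62S351E/+ mice and so rested on few reads. Mlxipl, the factor named above for Pklr, had 180, 192 and 176 normalized counts in p62+/+ livers and 154, 134 and 102 in p62S351E/+ livers, and Srebf1, an insulin-responsive factor of lipid synthesis, had 54.6, 51.2 and 36.3 against 17.1, 35.3 and 24.0. Both were lower without overlap, with log2 fold changes of -0.49 (SE 0.22, adjusted p 0.350) and -0.88 (SE 0.30, adjusted p 0.260) by edgeR. Mlxipl and Srebf1 were picked from the list after their values were seen. Hnf4a, like Igfbp1 and Ppargc1a, was higher without overlap (log2 fold change 0.73, SE 0.24, adjusted p 0.241, edgeR). Per 1000 hepatocyte-marker counts the groups of Ppargc1a overlapped (0.669 to 1.19 in p62+/+ livers, 1.20, 1.06 and 1.77 in p62S351E/+ livers). Those of Hnf4a did too (6.02 to 6.54 against 6.35, 5.92 and 7.60). On this scale Igfbp1 stayed higher and Onecut1, Mlxipl and Srebf1 lower without overlap. With scaling to these markers 7 of the 21 regulators had a log2 fold change above 0 and their median was -0.32, against -0.60 over all genes. Of 10 genes of the pyruvate dehydrogenase complex and its kinases and phosphatases, 6 were tested, 0 were called (0 in either direction at an unadjusted p below 0.05, edgeR, and 0 by the DESeq2 Wald test and limma-voom), and 1 was lower without overlap (14.7% of all genes).

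Isozymes of other tissues were low in the 2 libraries that had few brain transcripts, and the part of those transcripts in their difference was not tested. Of 16, 12 were tested, all 12 had a log2 fold change below 0 with a median of -1.24, and 4 were lower without overlap (14.7% of all genes), with 0 called (0 higher and 1 lower at an unadjusted p below 0.05, edgeR, and 0 by the DESeq2 Wald test and limma-voom). Aldoc, the aldolase of brain, had 111, 107 and 130 normalized counts in p62+/+ livers, 0 in p62S351E/+ mice 1 and 2, and 111 in mouse 3. Pkm, the pyruvate kinase of most tissues other than liver, had 138, 122 and 163 in p62+/+ livers and 55.2, 36.5 and 139 in p62S351E/+ livers. In mouse 3 Pkm thus lay within the wild-type range, where Pklr was below it. Eno2 (58.6, 68.3 and 63.0 against 1.90, 0 and 47.3 normalized counts), Pygm (log2 fold change -1.61) and Slc2a3 (-2.26) did not overlap and differed by more than 1 log2 unit. With only the 4 libraries that held brain transcripts, the median of the 12 was -0.03.

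**Figure D5:**
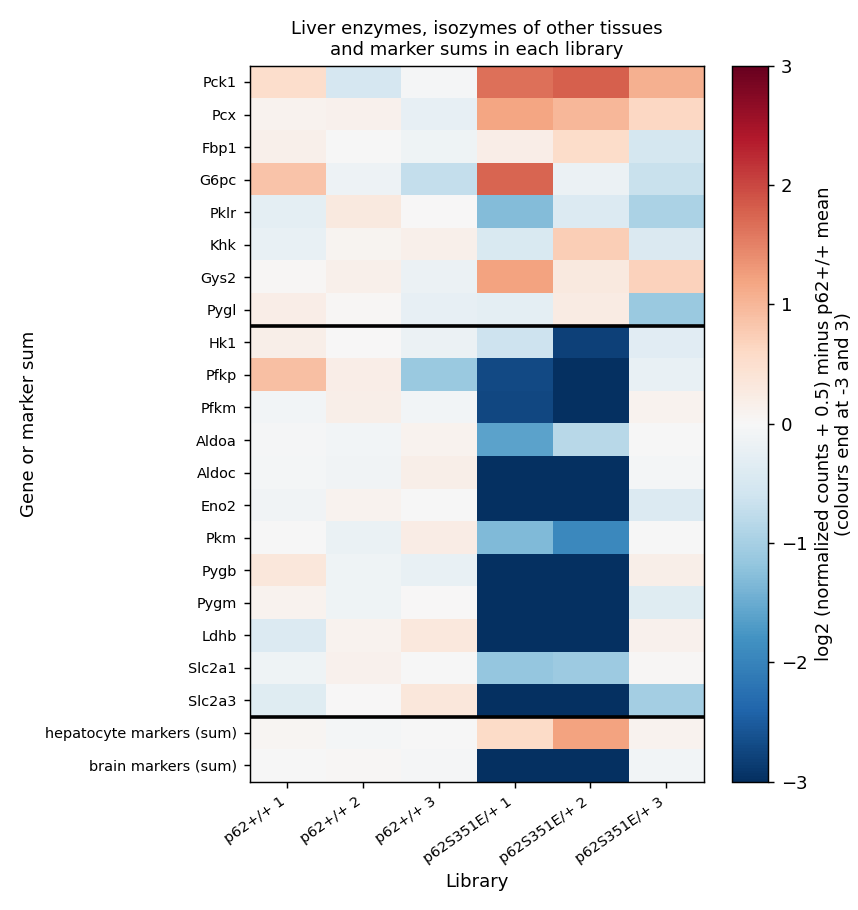
Colours give the log2 of normalized counts plus 0.5 minus the p62+/+ mean (red higher, blue lower, ending at -3 and 3) for the 8 genes (top), the 12 tested isozymes of other tissues (middle) and the summed hepatocyte and brain markers (bottom) in each of the 6 libraries (columns). The isozymes and brain markers are low in p62S351E/+ mice 1 and 2 and near the wild-type level in mouse 3 for most rows, while Pck1 and Pcx are red and Pklr blue in all 3 p62S351E/+ mice.

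For the 4 genes whose groups did not overlap, the tested genes with the nearest pattern over the 6 libraries were sought by the root mean square difference of centred log2 normalized counts. For Pck1 these were Apoc2 (0.16 log2 units) and Fam13a (0.19), for Pcx Asgr2 (0.061), for Pklr Atxn1 (0.12) and Mcu (0.12), and for Gys2 Ric1 (0.087) and Gm12070 (0.096). Apoc2 and Asgr2, an apolipoprotein and a subunit of the asialoglycoprotein receptor, are made by hepatocytes. Asgr2 had 27.3, 25.6 and 19.001 normalized counts in p62+/+ livers and 55.2, 46.6 and 38.7 in p62S351E/+ livers, the same order of mutant mice as Pcx. The 6 libraries share their depth and composition, so likeness here is a description.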

How the data were processed

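RNA from 6 livers was depleted of ribosomal RNA and read as single ends. The authors trimmed reads with Trim Galore, mapped them to mm10 with STAR, estimated expected counts per gene with RSEM and deposited these expected counts unnormalized; versions, annotation and strand setting are not given in the sources used here. RSEM splits shared reads, and 6.45% of nonzero values were not whole. Groups and numbers came from the labels. Counts were rounded and tested in R 4.3.3 with edgeR 4.0.16 (filterByExpr with a minimum count of 10, TMM, robust quasi-likelihood fit, legacy set to FALSE). DESeq2 1.42.0, limma 3.58.1 (voom), other scalings and filters, covariates and left-out libraries were alternatives. On simulated counts for this comparison (5 runs of 5145 to 5696 tested genes), 75% of 752 genes changed by 2 log2 units were recovered and 7.69% of 611 calls were false. The estimates of the 8 genes were smaller than this change, the greatest in size being 1.48 for Pck1. Recovery of changes of their size was not simulated. Positions and promoters are RefSeq GRCm38.p6, and exon lengths GENCODE. Besides the 8 genes, other pathway genes were named if called, if separate by over 1 log2 unit, or as partners in a pair, and the 2 nearest genes in pattern were named for each separate member; a few genes these rules select are not reported here. The members and lists were chosen with earlier results of these data known. Few counts limit precision, and counting error does not cover differences between mice.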

Additional observations from a re-analysis of the deposited data

How the results depend on the processing

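Of the 8 genes, 0 were called higher in the comparison reported, and 1 (Pck1) was called higher with the DESeq2 Wald test (adjusted p 0.0300), limma-voom (0.00360), no filter on low counts (0.0309) or at least 10 counts in every library (0.00542), which tested 7 of the 8 and not Pklr. Leaving out 1 library at a time gave 0 to 2 called higher, the 2 being Pck1 and Pcx without p62S351E/+ mouse 3. With only the libraries that held brain transcripts, chosen after seeing the data, 1 (Pygl) was called lower. Without overlap, 3 were higher and 1 lower. Scaling by library size alone gave 0 higher and 3 lower, and leaving out 1 library gave 1 to 3 lower. The shares of all genes in these settings are not given here. Scaling to the hepatocyte markers (also chosen after seeing the data) gave 1 and 4, against 1.98% and 29.5% of all genes. With only the libraries that held brain transcripts the mutant group is 1 mouse, so lack of overlap cannot be compared with these counts. Of the other pathway genes, 2 were called higher and 0 lower. The number called higher was 4 with limma-voom and with 10 counts in every library (with 2 lower), 1 with the Xist or the brain-marker covariate, and 0 with scaling by library size alone or to the hepatocyte markers. It was 1 to 13, with 0 to 14 lower, when 1 library was left out, the highest of both coming without p62S351E/+ mouse 3. In that comparison 333 of all 6390 genes tested were called higher (5.21%) and 975 lower. Of the pathway genes called lower there, 11 were isozymes of other tissues. No called value changed sign. The log2 fold changes near 0 did: with scaling by library size alone, the Xist and brain-marker covariates, hepatocyte-marker scaling and the libraries that held brain transcripts, in this order, that of G6pc was -0.49, -0.36, -0.85, -0.045 and -0.81, that of Fbp1 -0.64, -0.37, -0.55, -0.56 and -0.53, and that of Khk -0.64, -0.32, -0.46, -0.67 and -0.44. With 10 counts in every library Fbp1 was -0.15 and Khk -0.21. Khk was also -0.053 with limma-voom, -0.051 with the replicate block and -0.0069 without the 3 abundant RNAs, and Pdha1 was 0.0073 with the legacy method. Leaving out 1 library gave -0.55 (without p62S351E/+ mouse 1) to 1.10 for G6pc, -0.13 (without p62S351E/+ mouse 2) to 0.38 for Fbp1, -0.46 (without the same mouse) to 0.27 for Khk and -0.26 to 0.17 for Pdha1. It gave -0.085 (without p62S351E/+ mouse 2) to 0.85 for Fbp1 over Pfkl and -0.14 (without p62S351E/+ mouse 1) to 0.31 for Fbp1 over Khk. The other pair ratios given kept their sign in each alternative, and the permutation test could pass no threshold in any of them. The causes of these changes were not tested. Mice with the same number did not deviate together (correlations 0.068, -0.080 and 0.0026), so the number was not taken as a pairing. With the replicate block, 0 of the 8 genes and 1 other pathway gene were called higher, and 18 genes in all were called higher and 1 lower instead of 50 and 5. Depth limits Pklr among the 8 genes most, since p62S351E/+ mouse 1 held 7 counts of it.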
